A study of Mus musculus with 9 samples.

Results

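The cytosolic ribosomal protein genes encode the protein part of the ribosomes that translate nuclear mRNAs. They were taken by symbol, as the names Rpl, Rps, Rplp or Rpsa with the usual number and letter and without a pseudogene suffix, and were kept where at least 3 of the 9 libraries held 10 or more counts. Of the 55401 rows of the count table, 83 had such a symbol and 81 passed the minimum, 49 of the large subunit and 32 of the small subunit. Just inside the minimum lay Rpl39l, a copy of Rpl39 best known from testis, with 8, 10, 12 and 24 counts in 4 libraries and 0 in the other 5. Just outside lay Rpl32l with 2 to 12 counts in every library, of which 1 library reached the minimum, and Rpl10l, a testis copy of Rpl10, had 0 counts in all 9. The other 80 members entered the test across all 19051 genes.

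RNA sequencing was done on total RNA of mouse hearts in 3 groups of 3 libraries. Control hearts were wild-type and correspond to the sham operation of the design text, with no time given. TAC hearts came from wild-type mice 12 weeks after transverse aortic constriction, an operation that narrows the aorta and loads the left ventricle. KO-TAC hearts, also at 12 weeks after the operation, were labelled c-Myc Knockout: both Myc alleles were floxed and an inducible Cre (iCre) was driven by Tcf21, a gene of cardiac fibroblasts, with tamoxifen at 45 mg/kg on 5 consecutive days. All mice were male and 8 to 12 weeks old at the operation. By this design Cre activity was meant for Tcf21-expressing cells, which was not measured here, while RNA was taken from the heart with all its cells. No floxed, Cre-bearing or knockout heart without TAC was analysed here, and the sources used here do not say whether wild-type mice were given tamoxifen, so tamoxifen, Cre and loss of Myc cannot be told apart. The hearts carry replicate numbers only, and TAC hearts 1, 2 and 3, numbered here by sample title, are the columns numbered 2, 3 and 4 in the count table; nothing ties each to a separate mouse, so the p-values reflect the spread of these libraries, which may be technical.

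A ribosome holds 1 copy of nearly every ribosomal protein, so these genes are known to be expressed in near balance, and their mRNAs share a pyrimidine-rich 5′ end (the TOP motif) through which mTOR and LARP1 control their translation. Myc is known as an activator of ribosome production, and growth of heart muscle cells under load needs new ribosomes. Striated muscle also carries Rpl3l, a paralog that replaces the general protein Rpl3 close to the site where peptide bonds form.

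The start sites of members of both subunits are printed to show the pyrimidine stretch in which these mRNAs begin. Each is 40 bases before and 20 after the start of a RefSeq transcript in GRCm38.p6, 5′ to 3′ on the gene's own strand, with CTTTC and CTTTT in capitals where they fall within 25 bases of the start. The windows are Rpl3l on the plus strand at chr17:24727786-24727845, Rpl35 on the minus strand at chr2:39005112-39005171, Rpl28 on the plus strand at chr7:4792925-4792984, Rpl27a on the plus strand at chr7:109519155-109519214, Rpl38 on the plus strand at chr11:114668540-114668599, Rplp2 on the plus strand at chr7:141447611-141447670, Rps6 on the minus strand at chr4:86857348-86857407 and Rps27 on the minus strand at chr3:90213629-90213688. Their levels are given below, with roles for Rpl3l, Rpl35, Rpl38, Rplp2 and Rps6.
Rpl3l: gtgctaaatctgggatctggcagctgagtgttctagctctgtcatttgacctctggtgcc
Rpl35: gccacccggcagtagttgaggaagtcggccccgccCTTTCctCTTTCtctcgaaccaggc
Rpl28: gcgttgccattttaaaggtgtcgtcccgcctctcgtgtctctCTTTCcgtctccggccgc
Rpl27a: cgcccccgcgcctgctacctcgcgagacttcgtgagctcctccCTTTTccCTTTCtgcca
Rpl38: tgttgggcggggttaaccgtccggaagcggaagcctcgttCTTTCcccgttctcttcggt
Rplp2: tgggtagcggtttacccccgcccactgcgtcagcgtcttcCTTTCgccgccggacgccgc
Rps6: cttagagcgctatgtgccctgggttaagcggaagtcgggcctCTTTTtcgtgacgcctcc
Rps27: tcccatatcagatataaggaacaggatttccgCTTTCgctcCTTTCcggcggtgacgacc
Rpl3l, the muscle paralog, held neither motif within 25 bases of its start, and the 7 general members shown were picked among those that did. RefSeq windows were found for 59 of the 81 members, 71 windows in all, and 23 windows (32.4%) held CTTTC or CTTTT on the transcribed strand, against 3788 of 32851 windows of all genes (11.5%). On both strands together the shares were 40.8% and 21.1%. The E-box CACGTG, the letters that Myc is known to bind, was in 8 of the 71 full windows of 300 bases (11.3%) and in 7.2% of all windows. The 22 tested members with CTTTC or CTTTT near a start had a median log2 difference between TAC and control of 0.62. The 36 without these letters had the same median of 0.62. The letters are a rough stand-in for the TOP motif, so members without them are not shown to lack it.

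The libraries held 59702513 to 109162107 counts, of which the members took 623826 to 2167242. Mitochondrially encoded genes took 23.8% to 38.5% of counts. Myc, the targeted gene, was at 2.15, 2.47 and 1.56 CPM (counts scaled to a common library size, with TMM factors) in control, 8.93, 6.22 and 14.2 in TAC and 4.23, 1.87 and 4.75 in KO-TAC hearts. Myc was lower in each KO-TAC heart than in every TAC heart, with an edgeR quasi-likelihood adjusted p of 0.555 over all genes. Of the markers of heart muscle cells fixed for this work, 7 of 7 were measured and none was at 0, which fits the labelled tissue. Their summed level was 67900 to 69800 CPM in control hearts, 10300 to 73500 in TAC hearts and 34000 to 62000 in KO-TAC hearts, so the hearts within both operated groups stood far apart. All 5 skeletal muscle markers together reached at most 0.491 CPM in any heart.

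As a share of all counts, the 81 members took 0.764%, 0.884% and 0.902% in the control hearts, 1.46%, 1.0% and 2.197% in the TAC hearts and 1.985%, 1.296% and 1.01% in the KO-TAC hearts. Every operated heart was above every control heart. On the TMM scale their summed level was 8960, 9562 and 9782 CPM in control, 15394, 11630 and 15182 in TAC and 15951, 12864 and 10888 in KO-TAC hearts. TAC heart 2 and KO-TAC heart 3 were the lowest of their groups, close to control, and KO-TAC heart 1 was level with the high TAC hearts.

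The median member, against its mean in control hearts, stood at a log2 difference of 0.81, 0.29 and 0.74 in TAC hearts 1 to 3 and at 0.82, 0.49 and 0.23 in KO-TAC hearts 1 to 3. The large subunit alone gave 0.81, 0.30 and 0.81 in TAC and 0.79, 0.48 and 0.22 in KO-TAC hearts, and the small subunit 0.80, 0.28 and 0.70 and then 0.83, 0.51 and 0.24. TAC heart 2 was the lowest TAC heart for 71 of 80 tested members (88.8%), against 41.5% of all 19051 genes. KO-TAC heart 1 was the highest KO-TAC heart for 75 members (93.8%), against 40.6% of all genes, and KO-TAC heart 3 the lowest for 75, against 35.9%. The highest TAC heart was TAC heart 3 for 41 members and TAC heart 1 for 36, so these hearts had no common order over the members. The median SD of a member on the log2 scale was 0.08 among control hearts and 0.30 among the hearts of either operated group, and over all genes it was 0.17 for control, 0.60 for TAC and 0.33 for KO-TAC.

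**Figure D1:**
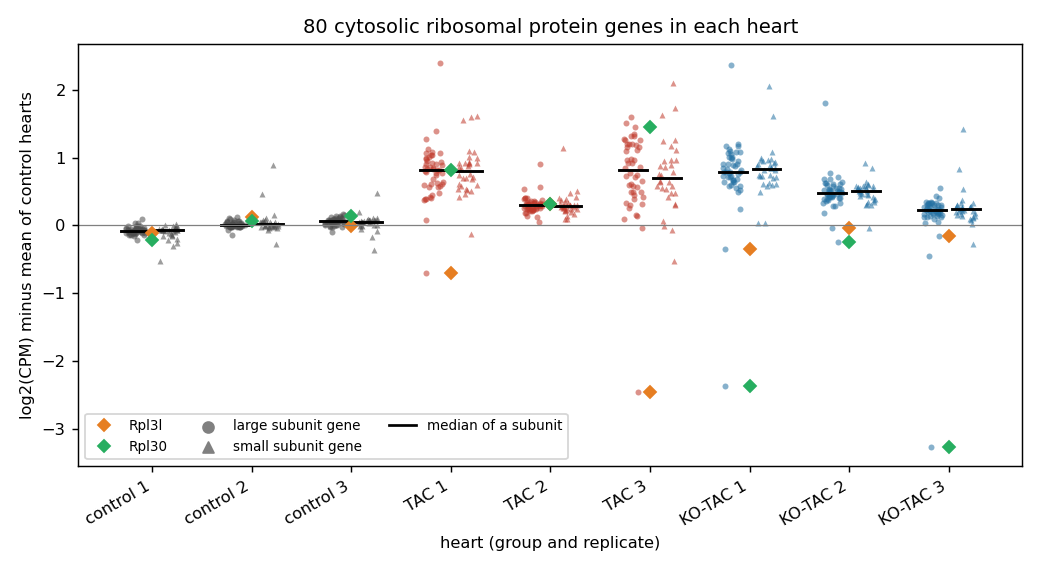
Each point is 1 of the 80 tested ribosomal protein genes in 1 heart, as log2 CPM minus the gene's mean in the 3 control hearts; circles are large and triangles small subunit genes, bars are medians, and diamonds mark Rpl3l and Rpl30. The medians lie near 0.81 in TAC heart 1 and near 0.29 in TAC heart 2, while Rpl3l lies below the other members in TAC hearts 1 and 3 and Rpl30 in KO-TAC hearts 1 and 3.

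In TAC against control hearts, 78 of 80 members were on the higher side, against 51.5% of all genes, with a median log2 difference of 0.64 (1.56-fold), an interquartile range of 0.46 to 0.82 and a range of -0.55 to 1.55. The median over all genes was 0.03. The 3 TAC hearts lay above all 3 control hearts for 72 of 80 members, against 14.1% of all genes, and for none did they lie below, against 14% of all genes. None of the 80 passed edgeR's quasi-likelihood test at an adjusted p of 0.05, and 0 of the 19051 genes did (0%); the lowest adjusted p of a member was 0.132. At an unadjusted p under 0.05, edgeR had 52 members higher and 0 lower, against 13.2% and 8.08% of all genes. DESeq2 called 27 members, all higher, against 5.67% of all genes called higher and 2.87% lower. Limma-voom with quality weights, which gives libraries that stand apart less weight, called 72 members higher, against 18.2% of all genes, and 1 lower, Rpl3l, against 19.8%. Whether more RNA per cell or more cells rich in these mRNAs gave the higher levels cannot be told apart in RNA of whole hearts. The summed heart muscle markers were lowest in TAC hearts 3 and 1, at 10330 and 30790 CPM, which were also the TAC hearts with the highest member levels, and the part of cell makeup in the member levels was not tested.

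TAC heart 2 decided how many members passed. Without it, edgeR called 47 of 81 members, all higher, against 13.5% of 19920 genes called higher and 14% lower, and the median was 0.78. Without TAC heart 3, whose muscle markers were lowest, 0 members passed, the median was 0.58 and 80 of 81 members were on the higher side, Rps2 and Rpl39l, which then entered the test, among them. Rpl39l had 0, 8 and 0 counts in control hearts and 10 and 0 in TAC hearts 1 and 2, too few to give a direction. TAC heart 2 itself, with summed muscle markers of 73500 CPM against at most 69800 in control hearts, had a member median of 0.29 above control.

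Rpl17, which lines the exit tunnel through which the new protein leaves, had the largest difference. It was at 20.9, 18.5 and 22.0 CPM in control hearts, at 107, 22.2 and 50.7 in TAC and at 104, 71.5 and 25.1 in KO-TAC hearts. TAC heart 2 lay just above the control hearts, and the log2 difference of 1.55 had a standard error (SE) of 0.59 and an edgeR adjusted p of 0.191. It was 0.83 without TAC heart 1, 1.94 without TAC heart 2 and 0.64 with near-identical copies summed, which ends its place as the largest. Rps12, a protein of the small subunit head, was at 35.7, 34.1 and 57.8 CPM in control, 121, 58.6 and 176 in TAC and 126, 77.7 and 59.97 in KO-TAC hearts. All 6 operated hearts were above the control hearts, although control heart 3 came within 1 CPM of the lowest. The log2 difference between TAC and control was 1.48 (SE 0.43, edgeR adjusted p = 0.145).

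Rpl21 of the large subunit was at 28.0, 31.0 and 33.2 CPM in control, at 80.5, 57.4 and 87.4 in TAC and at 63.8, 43.0 and 35.5 in KO-TAC hearts. It had the lowest p of the members, with a log2 difference of 1.29 (SE 0.26, edgeR adjusted p = 0.132, DESeq2 adjusted p = 6.47e-04). With near-identical copies summed the difference was 0.71 (edgeR adjusted p = 0.191), and Rpl38 then had the lowest adjusted p, 0.144. Among the exit tunnel proteins Rpl4, Rpl17, Rpl19, Rpl23a, Rpl26, Rpl31, Rpl35 and Rpl39, TAC lay above control in every heart for 8 of 8, where 72 of 80 members and 14.1% of all genes did, with a median log2 difference of 0.80. The span within that group ran from 0.30 for Rpl4 to 1.55 for Rpl17. Rpl31 was at 75.2, 75.6 and 76.4 CPM in control hearts and 160, 98.3 and 228 in TAC hearts, with no overlap. Rpl35, printed above with 2 pyrimidine stretches, was at 85.4, 91.8 and 97.3 CPM in control and 161, 114 and 178 in TAC hearts.

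The stalk that recruits translation factors to the large subunit is built from Rplp0, its base, and from Rplp1 and Rplp2. Rplp0 was at 364, 405 and 390 CPM in control and 408, 463 and 374 in TAC hearts, and these groups overlapped (log2 difference 0.11, SE 0.23). Rplp1 was at 148, 166 and 180 CPM in control and 331, 218 and 377 in TAC hearts, and Rplp2, whose start site is printed above, at 103, 106 and 103 and then 182, 134 and 146. Both lay above control in every TAC heart, with log2 differences of 0.90 and 0.57. The base and the paired arms of 1 structure thus had unequal differences in these hearts, and a difference between them was not tested. Of the proteins that form the particle with 5S rRNA, Rpl5 had a log2 difference of 0.33 (SE 0.23) and Rpl11 of 0.71 (SE 0.26), and neither overlapped with control.

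In the small subunit, Rps2 sits where the mRNA enters. It had the highest mean level of the small subunit genes and stood apart, at 391, 422 and 411 CPM in control, 375, 532 and 284 in TAC and 418, 397 and 416 in KO-TAC hearts. TAC heart 2 was the highest of the 9 and TAC heart 3 the lowest, and the log2 difference of -0.04 (SE 0.28) became 0.14 without TAC heart 3, 0.15 with library size alone and 0.01 with upper-quartile factors. Rps20, an entry-side neighbour of Rps3, was at 62.6, 69.1 and 71.4 CPM in control and 144, 82.9 and 209 in TAC hearts (log2 difference 1.10, SE 0.35). Of the other proteins around mRNA entry and decoding, Rps3 had 0.31, Rps6 0.40, Rps10 0.59, Rps15 0.74 and Rps23 0.87. Rps6, the target of the S6 kinases, was at 154, 162 and 165 CPM in control and 222, 200 and 214 in TAC hearts, with no overlap. Rpsa, second to Rps2 in mean level among small subunit genes, was at 243, 250 and 259 CPM in control and 401, 309 and 418 in TAC hearts.

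The ubiquitin fusion gene Rps27a, from which ubiquitin and a small subunit protein are cut, was at 34.5, 58.5 and 37.7 CPM in control and 128, 52.3 and 101 in TAC hearts. TAC heart 2 overlapped with control, and the log2 difference was 1.11 (SE 0.34). Rpl4, which with Rplp0 had the highest mean level of the large subunit, was at 297, 305 and 315 CPM in control and 403, 347 and 382 in TAC hearts. Rpl38, known for its part in translating Hox mRNAs, was at 45.6, 51.0 and 50.8 CPM in control and 119, 58.6 and 122 in TAC hearts. Rpl27a was at 85.2, 92.0 and 105 CPM in control and 203, 139 and 223 in TAC hearts, and Rpl28 at 108, 113 and 121 and then 215, 143 and 221. For each of these 4 genes TAC hearts lay above control hearts.

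**Figure D2:**
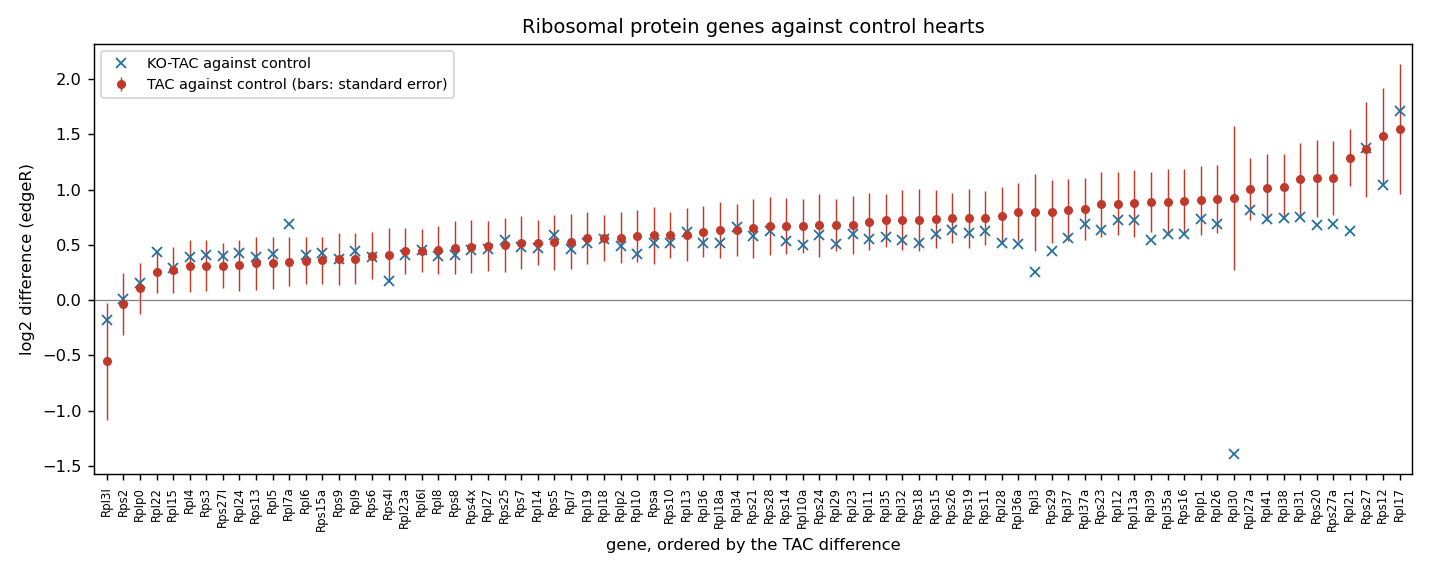
Log2 differences of 79 of the 80 tested members (horizontal axis, ordered by their TAC difference) against control hearts: red points with standard error bars are TAC and blue crosses KO-TAC hearts, 3 each. All but Rpl3l and Rps2 lie above 0 in TAC, and the cross of Rpl30 at -1.40 is the lowest.

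By transcript length, the 26 members with transcripts of 345 to 624 bases had a median log2 difference of 0.73 between TAC and control, the 26 of 633 to 946 bases 0.58 and the 26 of 954 to 3706 bases 0.58. Within single hearts, Spearman's rho between transcript length and the difference from control was -0.29 in TAC heart 1, 0.14 in TAC heart 2 and -0.19 in TAC heart 3, over 78 members that share a library, as a description. Mean level and difference had a rho of -0.37, 0.12 and -0.34 in the same 3 hearts, over 80 members.

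Rpl3l and Rpl3 encode alternative forms of 1 ribosomal protein. Their ratio within a heart, like that of any pair of genes, does not depend on library scaling. Rpl3l was at 161, 190 and 174 CPM in control, 108, 218 and 31.9 in TAC and 137, 170 and 157 in KO-TAC hearts. Rpl3 was at 88.0, 93.4 and 105 CPM in control, 196, 98.8 and 203 in TAC and 149, 124 and 69.5 in KO-TAC hearts. Per kilobase of transcript, Rpl3l led with 127 against 70.7 CPM on average in control and with 113 against 84.4 in KO-TAC hearts, while in TAC hearts Rpl3 led with 123 against 86.8. That order came from TAC hearts 1 and 3, since TAC heart 2 had the control order. With the near-identical copies of each gene counted, Rpl3 had 116 against 113 CPM per kilobase for Rpl3l in KO-TAC hearts, so the order there turned, and 77.1 against 127 in control hearts.

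The log2 ratio of Rpl3l to Rpl3 was 0.87, 1.03 and 0.72 in control, -0.86, 1.14 and -2.67 in TAC and -0.12, 0.46 and 1.18 in KO-TAC hearts. Its mean over 3 hearts (± SD) was 0.87 ± 0.15 for control, -0.80 ± 1.91 for TAC and 0.51 ± 0.65 for KO-TAC. TAC differed from control by -1.67 (two-sided exact permutation p = 0.4, n = 3 and 3), KO-TAC from TAC by 1.303 (exact p = 0.3) and KO-TAC from control by -0.37 (exact p = 0.5), where 3 against 3 hearts cannot go below 0.1. The TAC difference was -0.73 without TAC heart 3 and -2.64 without TAC heart 2. The KO-TAC difference from TAC was 0.37 without TAC heart 3 and 2.27 without TAC heart 2, and that from control was -0.06 without KO-TAC heart 1, -0.70 without KO-TAC heart 3 and -0.74 with near-identical copies summed.

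Tested singly, Rpl3l had a log2 difference of -0.55 (SE 0.53, edgeR adjusted p = 0.54) and Rpl3 of 0.80 (SE 0.35, edgeR adjusted p = 0.231) between TAC and control. Without TAC heart 2 the Rpl3 difference was 1.06 with an edgeR adjusted p of 0.0306, and that of Rpl3l was -1.33 with an edgeR adjusted p of 0.0505. Without TAC heart 3 the Rpl3l difference was -0.11. The markers of heart muscle cells moved in the same hearts: their median log2 difference from control was -1.29, 0.00 and -3.77 in TAC hearts 1 to 3 and -1.0, -0.46 and -0.20 in KO-TAC hearts. Rpl3l stood at -0.70, 0.32 and -2.45 and at -0.35, -0.04 and -0.15 in these hearts, above the marker median in 6 of 6. The markers themselves spread widely within a heart. From the control mean to TAC heart 3, Tnnt2 went from 7169 to 3097 CPM and Pln from 4922 to 188. In that heart Rpl3l lay further below its control mean than Tnnt2 and Tnni3 did, and less far than the other markers. The part of muscle cell content in the ratio was not tested.

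Elongation factor 1A, which brings aminoacyl-tRNA to the ribosome, has a similar division between Eef1a2 of muscle and neurons and the general Eef1a1. Eef1a2 was at 739, 728 and 770 CPM in control, 296, 907 and 56.6 in TAC and 434, 880 and 832 in KO-TAC hearts, and Eef1a1 at 494, 486 and 507, at 1087, 558 and 1455 and at 1087, 738 and 577. The log2 ratio of Eef1a2 to Eef1a1 was 0.58 to 0.60 in control hearts, -1.88, 0.70 and -4.68 in TAC and -1.33, 0.25 and 0.53 in KO-TAC hearts. The order of the hearts within TAC was the same as for Rpl3l and Rpl3, and the swing was larger.

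**Figure D3:**
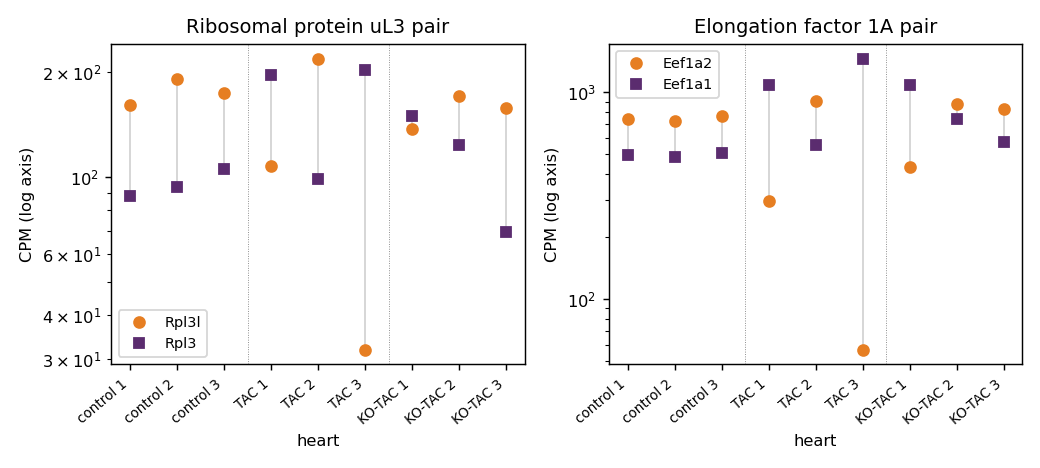
Levels in CPM (log axes) of Rpl3l and Rpl3, left, and of Eef1a2 and Eef1a1, right, in each of the 9 hearts; grey lines join the genes of a pair. The muscle form (orange) is above the general form (purple) in every control heart and in TAC heart 2, and below it in TAC hearts 1 and 3 and in KO-TAC heart 1.

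Rpl3l (chr17:24727820-24736143, plus strand, GRCm38) lies near Rps2 (chr17:24718116-24721929, plus strand), with 5890 bases and 1 coding gene between them. These were the 2 members below 0 in TAC against control, and Rpl3l and Rps2 were both lower in TAC heart 3 than in any other heart. Of the remaining copies within the ribosome, Rps27l, a p53-responsive copy of Rps27, was at 29.0, 29.6 and 27.1 CPM in control, 43.7, 34.0 and 28.4 in TAC and 40.01, 42.0 and 31.0 in KO-TAC hearts. Rps4l was at 11.4 to 15.6 CPM in control and 16.5 to 19.6 in TAC hearts, and its parent Rps4x at 181 to 205 and 230 to 293. Rpl10 was at 164 to 178 CPM in control and 208 to 291 in TAC hearts, and Rpl39 at 28.3 to 32.8 and 36.7 to 70.9. The log2 differences between TAC and control were 0.31 for Rps27l, 0.41 for Rps4l, 0.48 for Rps4x, 0.58 for Rpl10 and 0.89 for Rpl39.

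Ribosomal protein genes have many processed copies in the genome, and counts can be split among near-identical sequences. Counting a copy as a gene model that aligned at 90% identity or more over at least 70% of a member's coding length, 935 copies of 74 members were in the table, with 10.1% to 11.7% of the counts of all these families together in any library. In single families the copies held from 0% for Rps3 to 93.6% for Rpl30 in KO-TAC heart 3, with 69.2% to 80.7% for Rpl21 and 62.9% to 78.1% for Rpl7a. The sources used here do not say how reads that map to several places were counted, so values of single members with such copies are uncertain. With copies summed into their member, the medians were 0.62 for TAC against control, -0.10 for KO-TAC against TAC and 0.53 for KO-TAC against control. Of the TAC differences, Rps27 (below), Rpl17 and Rpl21 moved most: Rpl17 went from 1.55 to 0.64 and Rpl21 from 1.29 to 0.71, while Rps12, at 1.25, became the member with the largest difference. The copies named here were chosen after their values were seen.

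Rps27, of the small subunit, has a coding copy, Rps27rt, with 100% identity over the aligned 341 bases. Rps27 was at 24.3, 65.1 and 27.3 CPM in control, 107, 77.5 and 116 in TAC and 145, 63.2 and 93.7 in KO-TAC hearts, and control heart 2 overlapped only with KO-TAC heart 2. Rps27rt was at 67.8, 34.3 and 74.9, then 44.2, 30.6 and 17.3, and then 19.7, 45.9 and 14.6 CPM. In control heart 2 and KO-TAC heart 2, where one of them departed from its group, the other departed the opposite way. The sum with all copies was 92.4, 99.8 and 102 CPM in control and 152, 108 and 134 in TAC hearts, and the log2 difference of Rps27 of 1.37 (SE 0.43) became 0.43 (SE 0.24) for the sum.

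**Figure D4:**
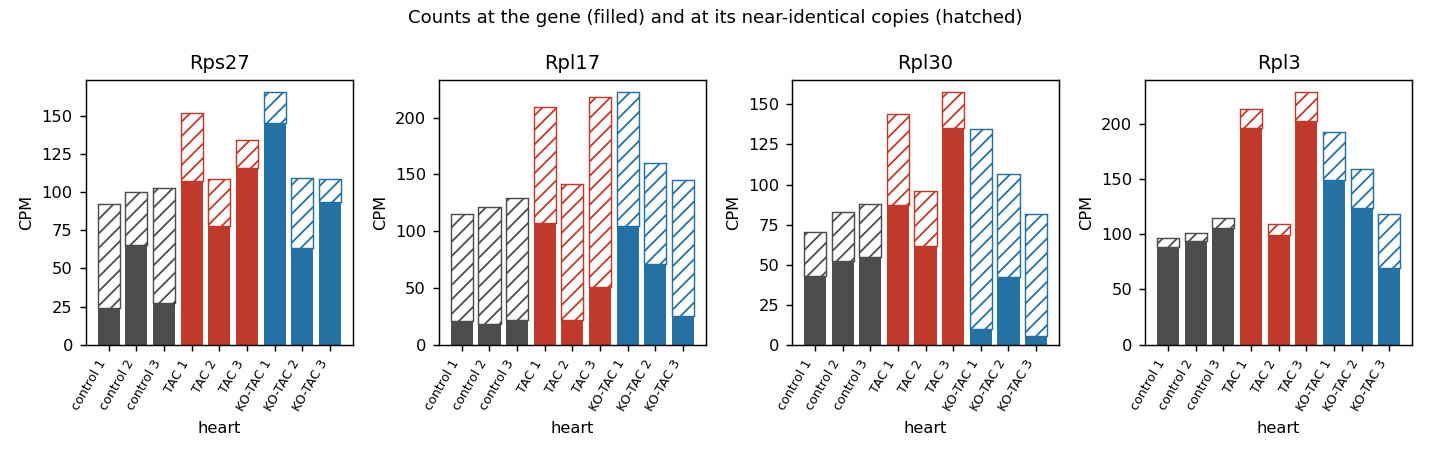
CPM at 4 members (filled) and at their near-identical copies (hatched, stacked on top) in each heart. For Rps27 the filled part varies more between hearts than the whole bar, and for Rpl30 the KO-TAC bars are mostly hatched.

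In KO-TAC against TAC hearts, 24 of 80 members were higher and 56 lower, against 50.8% of all genes higher, with a median log2 difference of -0.08 against 0.01 over all genes. By edgeR 0 of 80 members passed, as did 0 of all genes (0%), with 0 members higher and 2 lower at an unadjusted p under 0.05 against 2.94% and 4.51% of all genes. The groups overlapped for 79 of 80 members. Without KO-TAC heart 3 the median turned to 0.04 with 51 members higher, without KO-TAC heart 1 it was -0.26 with 6 higher, and without TAC heart 2 it was -0.24. The direction of the median thus turned without KO-TAC heart 3, and its size moved with single hearts of either group.

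The exception was Rpl30, a large subunit protein whose own mRNA is known to be controlled by it in yeast. It was at 42.8, 52.2 and 54.8 CPM in control, 87.1, 61.85 and 135.2 in TAC and 9.63, 42.1 and 5.19 in KO-TAC hearts. Each KO-TAC heart was below every heart of the other groups. Against TAC alone, such a gap downward held for 1 of 80 members and 4.8% of all genes, and one upward for 0 members and 5.17% of all genes. The log2 difference was -2.32 between KO-TAC and TAC (SE 0.68), where edgeR gave an adjusted p of 0.578 and DESeq2 of 0.0348. It was -1.40 between KO-TAC and control (SE 0.66, edgeR adjusted p = 0.851). With single hearts left out, the first ran from -3.68 (without KO-TAC heart 2) to -1.87 (without KO-TAC heart 3) and the second from -2.76 to -0.95 in the same order. DESeq2 called 1 member lower in KO-TAC against TAC, which was Rpl30, against 0.614% of all genes lower and 0.409% higher. Limma-voom called 1 member lower, Rpl21, against 1.93% of all genes, and none higher, against 3.3%.

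Counts at a copy of Rpl30 ran the other way. Gm12191, a processed pseudogene with 99.7% identity to Rpl30, was at 14.2, 17.0 and 19.7 CPM in control, 32.6, 19.2 and 15.5 in TAC and 100, 45.5 and 61.5 in KO-TAC hearts. Copies held 37.0% to 39.4% of the counts of the Rpl30 family in control hearts, 14.2% to 39.6% in TAC hearts and 60.5% to 93.6% in KO-TAC hearts. Summed, the family was at 70.6, 82.8 and 87.9 CPM in control, 144, 96.1 and 158 in TAC and 135, 107 and 81.3 in KO-TAC hearts. The log2 difference of the sum was -0.30 (SE 0.27) against TAC and 0.43 (SE 0.27) against control, so the direction against control turned and that against TAC shrank.

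Of the 74 members with copies, the share of counts at copies was higher in all 3 KO-TAC hearts than in the other 6 for Rpl30 and Rpl3, lower for Rps4x and overlapping for 71. The 3 without overlap were 4.05% of these members. No such share was computed for other genes, so this small count was not read as a trait of KO-TAC hearts. For Rpl3 the copies held 7.8% to 11.2% in the 6 wild-type hearts and 22.6%, 22.1% and 41.4% in KO-TAC hearts. Its copy Rpl3-ps1, with 99.8% identity, was at 7.23, 6.68 and 7.45 CPM in control, 15.9, 8.61 and 24.0 in TAC and 37.8, 29.7 and 42.0 in KO-TAC hearts. With copies, the Rpl3 log2 difference between KO-TAC and control was 0.60 (SE 0.31) in place of 0.26 (SE 0.35). Rpl30 (chr15:34440505-34443640, minus strand) and Rpl3 (chr15:80077791-80091868, minus strand) both lie on chromosome 15, as does the floxed gene Myc (chr15:61985391-61990374, plus strand). Chromosome 15 holds 4 members, 3 of them with copies, and for the third, Rpl37, the copies held 7.5% to 8.4% in KO-TAC and 6.9% to 8.4% in the other hearts. Shares also shifted in single KO-TAC hearts for members elsewhere. For Rps2 on chromosome 17 it was 24.9% and 23.0% in KO-TAC hearts 1 and 2, and at most 12.5% otherwise. For Rps13 on chromosome 7 it was 22.4% and 24.5% in KO-TAC hearts 2 and 3, and at most 15.4% otherwise. For Rpl7a on chromosome 2 it was lower in KO-TAC hearts 1 and 3, at 62.9% and 67.9%. A part of position or of the floxed allele in these shares was not tested.

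The members with the next lowest differences between KO-TAC and TAC were Rpl21 at -0.66 (SE 0.26), Rpl3 at -0.54 (SE 0.35) and Rps12 at -0.44 (SE 0.42). The 4 highest were Rpl3l at 0.38 (SE 0.53), Rpl7a at 0.34 (SE 0.22), Rpl22 at 0.18 (SE 0.19) and Rpl17 at 0.16 (SE 0.58). Each of these 7 overlapped between the groups. With near-identical copies summed, the values were -0.16 for Rpl21, -0.23 for Rpl3, -0.37 for Rps12, 0.04 for Rpl7a and -0.11 for Rpl17, while Rpl3l and Rpl22 stayed at 0.38 and 0.18. The Rps12 difference was -0.03 without TAC heart 3, and that of Rpl3 -0.28 without KO-TAC heart 3. Rpl7a, of the large subunit, was at 54.8, 51.6 and 48.2 CPM in control, 67.6, 58.6 and 70.3 in TAC and 108, 64.7 and 75.4 in KO-TAC hearts. The Rpl3l difference turned to -0.07 without TAC heart 3.

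KO-TAC hearts were compared with the same control hearts as TAC hearts, so these comparisons share samples. Here 78 of 80 members were on the higher side, against 53.8% of all genes, with a median log2 difference of 0.52 (1.43-fold) against 0.04 over all genes. All 3 KO-TAC hearts were above control for 70 members, against 12.9% of all genes, and below it for 1, Rpl30, against 13.6%. By edgeR 0 members passed, as did 0 of all genes (0%), and 31 were higher and 0 lower at an unadjusted p under 0.05, against 3.52% and 2.24% of all genes. DESeq2 called 0 members, against 0.304% of all genes higher and 0.163% lower. Limma-voom called 16 members higher, against 2.4% of all genes, and none lower, against 2.8%. The exit tunnel proteins lay above control for 8 of 8.

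The largest differences between KO-TAC and control were those of Rpl17 at 1.71 (SE 0.59), Rps27 at 1.37 (SE 0.43), Rps12 at 1.05 (SE 0.43) and Rpl27a at 0.81 (SE 0.28). Rpl17 and Rps27 were at 0.53 and 0.39 with copies summed, and Rps2, below, at 0.18, its copies holding 138 and 118 CPM in KO-TAC hearts 1 and 2 and 40.4 to 59.1 in the other 7. The smallest, after Rpl30, were Rpl3l at -0.18 (SE 0.53), Rps2 at 0.01 (SE 0.28) and Rplp0 at 0.16 (SE 0.23), the same genes as at the low end of the TAC comparison. The median was 0.36 without KO-TAC heart 1 and 0.66 without KO-TAC heart 3.

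Other genes of translation from lists made for this work were measured beside the members. Fau and Rps3a1 encode ribosomal proteins although their symbols fall outside the pattern. Fau, which encodes a small subunit protein fused to a ubiquitin-like one, was at 69.2, 75.3 and 73.8 CPM in control and 139, 89.7 and 177 in TAC hearts. Rps3a1 was at 218, 233 and 238 and then 322, 259 and 290 CPM. Of 16 translation factors and others with known TOP mRNAs, 9 were higher in TAC, with a median of 0.12. Among them Eef2, the translocation factor, was at 1129, 1199 and 1219 CPM in control and 805, 1288 and 554 in TAC hearts, while Tpt1 was at 648, 677 and 680 and then 1084, 833 and 970.

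Of 12 ribosome assembly factors, 8 were higher in TAC, with a median log2 difference of 0.10, and of 12 regulators of ribosome production 3 were higher and 9 lower, with a median of -0.39. Ncl, an abundant nucleolar protein, was at 216, 203 and 188 CPM in control and 174, 203 and 120 in TAC hearts. Nop56, of the complex that methylates rRNA, was at 24.4, 25.3 and 25.7 and then 37.1, 27.7 and 60.4 CPM. Larp1, which binds TOP mRNAs, was at 99.4, 97.4 and 101 and then 52.4, 98.0 and 57.9 CPM, and Mtor at 69.3, 66.2 and 69.8 and then 33.7, 62.0 and 35.9. Ubtf, next to Larp1 in mean level among the regulators, was among the 3 on the higher side. It was at 64.8, 65.5 and 60.05 CPM in control and 67.5, 86.4 and 82.6 in TAC hearts, with no overlap. None of these lists had a gene past edgeR's adjusted threshold in any of the 3 comparisons.

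The proteins of the mitochondrial ribosome, which translates the mitochondrial genome, gave 14 of 78 higher in TAC than in control, with a median log2 difference of -0.20, where the cytosolic members had 78 of 80 and 0.64. Of all genes, 51.5% were higher. Between KO-TAC and TAC, 76 of the 78 mitochondrial genes were higher, against 50.8% of all genes, with a median of 0.35. The cytosolic members had 24 of 80 and -0.08. All KO-TAC hearts lay above all TAC hearts for only 1 of the 78, against 5.17% of all genes. The median of the mitochondrial genes per heart against control was -0.04, 0.23 and -1.26 in TAC and 0.01, 0.32 and 0.12 in KO-TAC hearts. TAC heart 3, which had a cytosolic median of 0.74, had a mitochondrial one of -1.26, the lowest of the 9, and it also had the lowest muscle markers. The median of fibroblast markers in the TAC hearts was 1.20, -0.13 and 1.13 and that of endothelial markers 0.74, 0.005 and 0.90, so both were near control in TAC heart 2, where the members were at 0.29. Their part in the member levels was not tested.

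**Figure D5:**
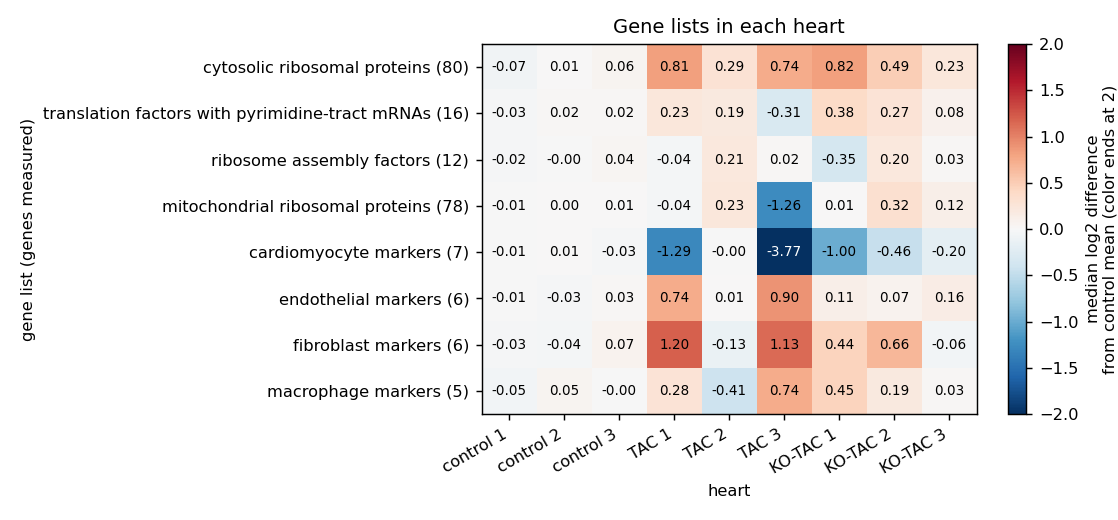
Median log2 difference from the control mean for 8 gene lists (rows, with the number of genes measured) in each heart (columns), printed in each cell and colored from blue (lower) to red (higher), with the color ends at 2. The cytosolic ribosomal proteins are above 0 in all 6 operated hearts, unlike the mitochondrial ribosomal proteins at -1.26 and the heart muscle markers at -3.77 in TAC heart 3.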

How the data were processed

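Per the labels' protocols, Trizol RNA of 9 mouse hearts went into strand-marking NEBNext libraries. The deposited values are raw counts per gene symbol, judged from their being whole and summing to unequal totals. The submitters' processing notes list HISAT2 (2.2.1) and StringTie (2.2.1) beside Trim Galore (0.6.10), SAMtools (1.15) and DESeq2 (1.42.0), and name the builds mm10 and GRCm38. The sources used here do not give the counting tool, its strand setting or its handling of reads with several matches. Total counts were 59702513 to 109162107, and all library pairs within a group differed beyond counting noise (lowest chi-square per degree of freedom 22.1). A symbol is repeated in 110 rows, which were kept apart.

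Differences were tested with edgeR 4.0.16 in R 4.3.3 (glmQLFit, glmQLFTest, two-sided, TMM, filterByExpr with a minimum count of 10, Benjamini-Hochberg adjusted p under 0.05 over 19051 genes), with all 9 libraries in 1 fit and the group as the only term. SE is the size of the log2 difference divided by the square root of F. Log2 CPM used a prior count of 2. The test was checked only on simulated counts with less spread than these data and with larger changes than the median member had. That check does not show how the test behaves at the spread and differences seen here. DESeq2 1.42.0, limma 3.58.1 (voom with quality weights), other scaling and filters, a replicate block and each library left out were alternatives; summed copies, library size alone and upper-quartile factors were chosen after seeing the data. Copies were found with blastn 2.17.0 against GENCODE transcripts of GRCm38, and promoter windows are from RefSeq. Named were the paralogs, the role lists, the 2 members per subunit with the highest mean level, the 4 largest and 4 smallest differences per comparison, and of other lists the 2 highest. Rpl31, Rpl28, Rpl27a, Rpl38, Rpl37, Fau, Rps3a1, Nop56, Tpt1, Mtor and the copies were named outside this rule where it does not select them, after their values were seen. Results of single genes and lists that could not be used are not reported here. The members and lists were chosen with earlier results of these data known.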

Additional observations from a re-analysis of the deposited data

How the results depend on the processing

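Under every alternative run for it, the median member was above 0 in TAC and KO-TAC against control. The number of members called was what depended on the test. In TAC against control it was 0 in edgeR, 27 with DESeq2 and 73 with limma-voom (72 higher against 18.2% of all genes, and Rpl3l lower at -0.72, adjusted p = 0.0236; Rpl3 0.95, adjusted p = 0.00758), and with libraries left out it ran from 0 to 47, the 47 being without TAC replicate 2 (Rpl3 1.06 there). In KO-TAC against TAC it was 1 with DESeq2 (Rpl30) and 1 with limma-voom (Rpl21, -0.87), and in KO-TAC against control 16 with limma-voom, against 2.40% of all genes. Scaling by library size alone moved the median of all genes to 0.29 and 0.28 against control and the members' to 0.94 in TAC and 0.79 in KO-TAC. Leaving mitochondrially encoded genes out of the total gave the members shares of 1.25% (control), 2.26% (TAC) and 1.94% (KO-TAC). With libraries left out, the Rpl3 difference in TAC ran from 0.61 to 1.06, and the Rpl3l difference between KO-TAC and TAC from -0.066 to 1.153; Rpl3l against control in KO-TAC was 0.043 with library size alone. Directions near 0 turned. Rps2 in TAC against control was 0.15 with library size alone, 0.006 with upper-quartile factors and -0.31 to 0.14 with libraries left out. Rps2 in KO-TAC against control was -0.002 with RLE factors and with DESeq2, -0.02 without mitochondrial genes, -0.019 with limma-voom, 0.178 with copies summed and -0.023 to 0.032 with libraries left out. In KO-TAC against TAC, Rpl17 was -0.11 with copies summed, -0.64 with limma-voom and -0.31 to 0.884 with libraries left out, and Rpl22 was -0.001 with limma-voom. Rpl30 against control was 0.43 with copies summed. The cause of these changes was not tested. With the replicate number as a block, 0 members were called in any comparison and the medians were 0.62, -0.09 and 0.51. Same-numbered hearts did not deviate together in all groups (r from -0.255 to 0.124), so the numbers were not taken as pairs; the numbers of the count table's TAC columns, 2 to 4, were not tried as pairs. Rpl39l, with at most 24 counts in a library, was too shallow to test; for the others the number of hearts limits the precision.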
